A study of Mus musculus with 12 samples.

Results

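Cd28, Icos and Ctla4 are 3 neighbouring genes on mouse chromosome 1 that encode related T cell surface receptors, and their transcripts are described here in 12 bulk RNA-seq libraries of sorted intraepithelial lymphocytes (IEL). The members were taken by gene symbol from the deposited count table, and all 3 were found among its 25899 different symbols. IEL are lymphocytes that lie between the epithelial cells of the gut. All hosts were Rag2-/- mice, which lack the recombinase needed to make T and B cells but keep innate lymphoid and myeloid cells. They had received a minimum of 2000000 conventional T cells by 1 intravenous injection, taken from lymph nodes of Themis wild-type (WT) donors, and the small intestine was collected 1 week later. Genotype is labelled WT for every library, and the age of the mice is not given in the sources used here.

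The 4 groups had 3 libraries each. CD4-derived CD8αα IEL were cells sorted as TCRβ CD8αα from hosts given CD4+ T cells (the CD4 progeny), and CD8αβ-derived CD8αα IEL were sorted alike from hosts given CD8αβ+ T cells (the CD8αβ progeny). The plots call them CD8αα from CD4 and CD8αα from CD8αβ. CD4 IEL were TCRβ CD4 cells of the CD4 progeny, and CD8αβ IEL were TCRβ CD8αβ cells of the CD8αβ progeny. The last 2 groups kept the coreceptor of the injected cells and are called companions here. The series title concerns whether CD8αα IEL of these origins form distinct lineages. No label says that replicates came from separate mice, and the spread that p-values are based on is that between these samples, which may be technical. In the CD8αα groups this spread also holds a split of the replicates by sex-linked transcripts, given below.

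T cells need a second signal beside the antigen receptor, and the CD28 family gives or withholds it. CD28 is present on naive T cells, binds CD80 (B7-1) and CD86 (B7-2) on antigen-presenting cells, and recruits phosphoinositide 3-kinase and adaptors that raise cytokine and survival gene expression. ICOS appears after activation, binds ICOS ligand and supports helper functions such as those of follicular helper T cells. CTLA-4 binds the same ligands as CD28 with higher affinity and restrains T cells. It is held constantly by regulatory T cells and cycles rapidly between the surface and endosomes. Thymus-derived natural CD8αα IEL are known to carry little CD28.

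In mm10 the genes lie in the order Cd28, Ctla4 and Icos, all on the plus strand, within 283.521 kb. Cd28 (ENSMUSG00000026012) spans 60716800 to 60773359 of chromosome 1, and its longest coding transcript in GENCODE M21 has 4 exons and 4347 bases. Ctla4 (ENSMUSG00000026011) spans 60887000 to 60915832 and lies 113.64 kb beyond Cd28, with 4 exons and 1933 bases in its longest coding transcript. Icos (ENSMUSG00000026009) spans 60977927 to 61000320 and lies 62.094 kb beyond Ctla4, with 5 exons and 3241 bases. The pseudogene Rpl18-ps1 lies inside the Ctla4 span and the predicted gene Gm37039 inside the Icos span, and neither touches an annotated exon of the members. Whether the counting used strand is not given in the sources used here.

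The upstream sequence of Ctla4 is shown because Ctla4 kept the most transcript in the CD8αα groups, and because it was the 1 of the 3 genes matched in the RefSeq promoter table (GRCm38.p6). The stretch is the 250 bases before the RefSeq start, chr1:60908775-60909024, plus strand, 5′ to 3′. It lies inside the span given above for Ctla4, which begins further upstream at 60887000. The capitals mark its match to the core motif of NFAT, a factor activated by T cell receptor calcium signals.
Ctla4 upstream: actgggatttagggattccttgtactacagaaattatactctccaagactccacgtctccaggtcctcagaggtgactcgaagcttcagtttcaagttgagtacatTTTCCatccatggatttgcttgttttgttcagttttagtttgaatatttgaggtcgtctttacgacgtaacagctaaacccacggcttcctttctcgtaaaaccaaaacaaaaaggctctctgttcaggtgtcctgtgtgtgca
The motif GGAAA was searched on both strands and matched 1 time, as its other strand TTTCC, at position -144 from the start. Of 32851 upstream windows of 250 bases, 55.6% hold this short motif. The AP-1 motif TGANTCA, held by 6.75% of windows, the STAT motif TTCNNNGAA, held by 7.02%, and the TATA box TATAAA, held by 12.4%, had 0 matches here. These are matches of letters and not shown binding sites.

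Between 5618917 and 11068713 counts were deposited per library. A floor of 3 counts, about the 1-sided 95% upper limit for a count of 0, corresponds to 0.271 to 0.534 CPM, read counts scaled to a common library total. All 3 genes had reads in all 12 libraries. Levels are given as CPM, with TMM factors applied to the totals, and intervals made from counts cover counting error only. The coreceptor transcript of the injected cells was low in each CD8αα group. Cd4 in CD4-derived CD8αα IEL was at 0.156 to 0.200% of the CD4 IEL mean. Cd8b1 in CD8αβ-derived CD8αα IEL was at 0.225 to 0.308% of the CD8αβ IEL mean. The other coreceptor differed: Cd8b1 in CD4-derived CD8αα IEL was at 304 to 408% of the CD4 IEL mean. Cd4 in CD8αβ-derived CD8αα IEL was at 15.3 to 40.3% of the CD8αβ IEL mean. These 2 companion means are themselves low. In CD4 IEL against CD8αβ IEL the log2 fold change was -7.77 for Cd8b1 and 6.12 for Cd4. Cd8b1 in CD4-derived CD8αα IEL was at -6.01 against CD8αβ IEL, and Cd4 in CD8αβ-derived CD8αα IEL at -7.89 against CD4 IEL. Other transcripts went against the TCRβ label or split the replicates. Group names, progeny and origin therefore follow the labels, and a fall or rise is a difference between labelled groups. Cd3e, a chain of the T cell receptor complex, was at 3.21 to 12.8 CPM in CD4-derived CD8αα IEL and 14.1 to 22.2 CPM in CD8αβ-derived CD8αα IEL, against 505 to 639 CPM in CD4 IEL and 403 to 574 CPM in CD8αβ IEL. Of 7 T cell markers, 6 were lower and 1, Cd3g, was higher in each CD8αα group than in its companion. Over all tested genes 13.5% were called lower and 15% higher in the CD4 progeny. In the CD8αβ progeny 15.1% were called lower and 16.1% higher. Sex-linked transcripts set 4 of the 6 libraries labelled CD8αα apart. In CD4-derived CD8αα IEL (replicates 1 and 2) and in CD8αβ-derived CD8αα IEL (replicates 1 and 3) Xist reached 373 to 645 CPM beside 0.342 to 1.03 CPM of Y-linked transcripts. The other 8 libraries held 234 to 449 CPM of Y-linked transcripts, with Xist between 0 and 36.4 CPM. Results on CD8αα groups are therefore also given without those 4 libraries, which leaves 1 library in each CD8αα group, assumed to vary like the companions.

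In both progenies all 3 receptor transcripts were lower in the libraries labelled CD8αα than in their companions, beside 13.5% of all tested genes called lower in the CD4 progeny and 15.1% in that of CD8αβ cells. Cd28 stood at 0.308% of the companion mean in the CD4 progeny and 0.321% in that of CD8αβ cells, and Ctla4 at 9.15% in the CD4 progeny but 7.03% in that of CD8αβ cells. Icos stood at 1.69% of the companion mean in the CD4 progeny but 0.356% in that of CD8αβ cells. Every one of the 6 CD8αα libraries lay below every one of the 6 companion libraries for each gene. How many of all tested genes separate in this way was not counted, here or where overlap is given below. The lack of overlap is therefore not shown to be particular to these genes. In bulk samples, fewer cells carrying a transcript and less transcript per cell cannot be told apart.

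**Figure D1:**
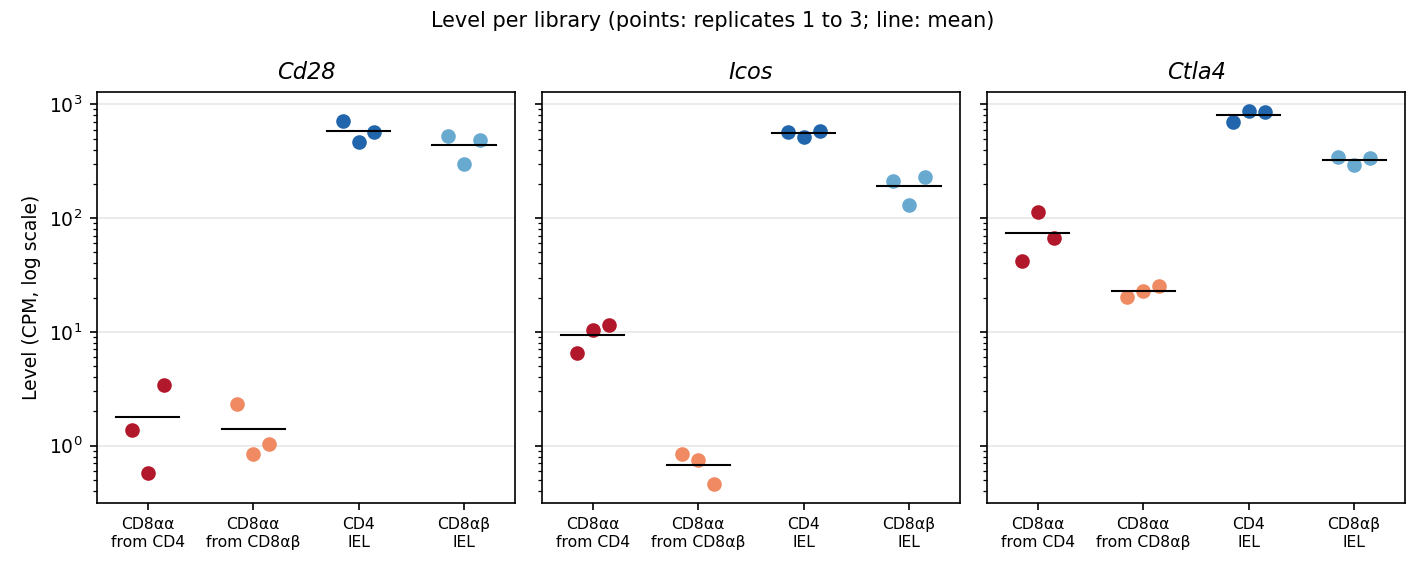
Level of Cd28, Icos and Ctla4 in each library in CPM on a log axis, with points for replicates 1 to 3 and lines for group means. CD8αα libraries lie below the companions in each panel, and the 2 CD8αα groups are apart for Icos (6.49 to 11.5 against 0.460 to 0.841 CPM) but overlap for Cd28.

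Cd28, the receptor that naive T cells already carry, had 8, 5 and 22 reads in CD4-derived CD8αα IEL (replicates 1, 2 and 3), against 6497, 3557 and 3822 reads in CD4 IEL. In CPM these were 1.37, 0.573 and 3.43 in CD4-derived CD8αα IEL, against 708, 464 and 572 in CD4 IEL. The groups were apart by a wide gap, and the highest CD8αα library, replicate 3, stood at 0.590% of the CD4 IEL mean. The means were 1.79 ± 1.48 CPM in CD4-derived CD8αα IEL and 582 ± 122 CPM in CD4 IEL (SD, n = 3 each). The log2 fold change was -8.40 ± 0.48 (SE), with an adjusted p of 5.50e-08 in edgeR's quasi-likelihood test over 12622 genes. It ranked 64 from the lowest log2 fold change in that comparison. It was -9.30 without replicate 3 of CD4-derived CD8αα IEL, and -7.40 (adjusted p = 1.42e-04) without the 4 libraries with high Xist.

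In the CD8αβ progeny Cd28 had 25, 8 and 9 reads in CD8αβ-derived CD8αα IEL, against 3794, 2852 and 2964 reads in CD8αβ IEL. These were 2.34, 0.850 and 1.03 CPM in CD8αβ-derived CD8αα IEL, against 526, 301 and 488 CPM in CD8αβ IEL. Replicate 1 was the highest of the CD8αα libraries here, and no library overlapped with the companion group. The means were 1.41 ± 0.810 CPM in CD8αβ-derived CD8αα IEL and 438 ± 120 CPM in CD8αβ IEL, a log2 fold change of -8.23 ± 0.47 (adjusted p = 3.28e-08, edgeR). Its rank was 39 from the lowest of 12622. It was -8.84 without replicate 1 of CD8αβ-derived CD8αα IEL, and -8.98 (adjusted p = 6.45e-05) without the 4 libraries with high Xist.

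No difference in Cd28 between the origins passed the test. Its log2 fold change in CD4-derived CD8αα IEL against CD8αβ-derived CD8αα IEL was 0.24 ± 0.58 (adjusted p = 0.881, edgeR), and the libraries overlapped. The 95% interval, at 35 and 42 reads per group, spans 0.499-fold to 2.80-fold, so a difference within that range is not excluded. Leaving out the 4 libraries with high Xist moved the log2 fold change to 1.99, which lies beyond that interval and did not pass the test (adjusted p = 0.611). CD4 IEL against CD8αβ IEL gave 0.41 ± 0.32 (adjusted p = 0.349, 95% interval -0.27 to 1.09), again with overlapping libraries. In the order of Cd28 levels, CD4 IEL and CD8αβ IEL are neighbours that did not differ beyond their spread, and so are CD4-derived CD8αα IEL and CD8αβ-derived CD8αα IEL. Each CD8αα group differed from each companion.

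Icos, the receptor induced by activation, was lower in the libraries labelled CD8αα in both progenies. With all libraries it also differed between the CD8αα groups. It had 38, 90 and 74 reads in CD4-derived CD8αα IEL, against 5274, 3941 and 3906 reads in CD4 IEL. These were 6.49, 10.3 and 11.5 CPM in CD4-derived CD8αα IEL, against 575, 514 and 585 CPM in CD4 IEL. All 3 CD8αα libraries lay far below all 3 CD4 IEL libraries. Means were 9.45 ± 2.64 CPM in CD4-derived CD8αα IEL and 558 ± 38.3 CPM in CD4 IEL, a log2 fold change of -5.87 ± 0.27 (adjusted p = 7.26e-09, edgeR). It ranked 189 from the lowest. Leaving out the 4 libraries with high Xist gave -5.59 (adjusted p = 1.67e-04).

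In the CD8αβ progeny Icos had 9, 7 and 4 reads in CD8αβ-derived CD8αα IEL, against 1538, 1237 and 1396 reads in CD8αβ IEL. These were 0.841, 0.744 and 0.460 CPM in CD8αβ-derived CD8αα IEL, against 213, 131 and 230 CPM in CD8αβ IEL. The 3 CD8αα libraries were thus near the limit of detection, while the lowest CD8αβ IEL library, replicate 2, still held 1237 reads. Means were 0.682 ± 0.198 CPM in CD8αβ-derived CD8αα IEL and 191 ± 53.1 CPM in CD8αβ IEL, a log2 fold change of -8.08 ± 0.33 (adjusted p = 2.92e-09, edgeR) that ranked 43 from the lowest. Leaving out the 4 libraries with high Xist gave -7.97 (adjusted p = 6.12e-05).

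Between the CD8αα groups, Icos was 13.5-fold higher in CD4-derived CD8αα IEL than in CD8αβ-derived CD8αα IEL, with no overlap of libraries. The log2 fold change was 3.75 ± 0.34 (adjusted p = 1.28e-04, edgeR). Without the 4 libraries with high Xist the difference was 3.93 and no longer passed the threshold (adjusted p = 0.126, 1 library in each CD8αα group). Icos was also 2.92-fold higher in CD4 IEL than in CD8αβ IEL, with a log2 fold change of 1.55 ± 0.22 (adjusted p = 2.67e-04). The fall in the CD4 progeny was smaller than that in the CD8αβ progeny by 2.20 ± 0.42 on the log2 scale (95% interval 1.31 to 3.10, adjusted p = 0.0134 for the interaction). Without replicate 3 of CD8αβ-derived CD8αα IEL the interaction was 2.01 (adjusted p = 0.0526), and without the 4 libraries with high Xist it was 2.38 (adjusted p = 0.373). From low to high, Icos levels ran CD8αβ-derived CD8αα IEL, CD4-derived CD8αα IEL, CD8αβ IEL and CD4 IEL, and each pair of neighbours passed the test with all libraries.

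Ctla4, the inhibitory member, kept the largest share of its companion level. It had 245, 986 and 428 reads in CD4-derived CD8αα IEL, against 6370, 6730 and 5664 reads in CD4 IEL. These were 41.8, 113 and 66.8 CPM in CD4-derived CD8αα IEL, against 695, 878 and 848 CPM in CD4 IEL. Replicate 2 of CD4-derived CD8αα IEL, the highest, was at 14.0% of the CD4 IEL mean and replicate 1, the lowest, at 5.18%. Means were 73.9 ± 36.1 CPM in CD4-derived CD8αα IEL and 807 ± 98.5 CPM in CD4 IEL, a log2 fold change of -3.44 ± 0.28 (adjusted p = 9.69e-07, edgeR) that ranked 395 from the lowest. Leaving out the 4 libraries with high Xist gave -3.59 (adjusted p = 1.59e-04).

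In the CD8αβ progeny the replicates of Ctla4 were close to each other. It had 218, 216 and 220 reads in CD8αβ-derived CD8αα IEL, against 2490, 2747 and 2066 reads in CD8αβ IEL. These were 20.4, 23.0 and 25.3 CPM in CD8αβ-derived CD8αα IEL, against 345, 290 and 340 CPM in CD8αβ IEL. The CD8αα libraries thus ran from 6.27 to 7.77% of the companion mean. Means were 22.9 ± 2.45 CPM in CD8αβ-derived CD8αα IEL and 325 ± 30.4 CPM in CD8αβ IEL, a log2 fold change of -3.83 ± 0.29 (adjusted p = 3.79e-07, edgeR) that ranked 318 from the lowest. Leaving out the 4 libraries with high Xist gave -3.82 (adjusted p = 7.92e-05).

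Ctla4 was higher in the CD4 progeny for either phenotype. It was 3.24-fold higher in CD4-derived CD8αα IEL than in CD8αβ-derived CD8αα IEL, with a log2 fold change of 1.70 ± 0.27 (adjusted p = 0.00436, edgeR) and no overlap of libraries. Without the 4 libraries with high Xist this was 1.54 (adjusted p = 0.235, 1 library in each CD8αα group). In CD4 IEL it was 2.48-fold higher than in CD8αβ IEL, with a log2 fold change of 1.31 ± 0.26 (adjusted p = 0.00248). The falls in the progenies differed by 0.39 ± 0.37 on the log2 scale (95% interval -0.40 to 1.17, adjusted p = 0.626 for the interaction). The order of Ctla4 levels, from low to high, was CD8αβ-derived CD8αα IEL, CD4-derived CD8αα IEL, CD8αβ IEL and CD4 IEL, and each pair of neighbours passed the test with all libraries.

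These counts of members stand beside those over all genes tested, where a gene is called at an adjusted p under 0.05 (edgeR). In CD4-derived CD8αα IEL against CD4 IEL 28.5% of 12622 genes were called, 15% higher and 13.5% lower, and 3 of 3 members were lower. In CD8αβ-derived CD8αα IEL against CD8αβ IEL 31.2% were called, 16.1% higher and 15.1% lower, and again 3 of 3 members were lower. The 2 CD8αα groups differed in 4.33% of genes, 1.87% higher and 2.46% lower in CD4-derived CD8αα IEL, and 2 of 3 members were higher. The companions differed in 29% of genes, 12.9% higher and 16% lower in CD4 IEL than in CD8αβ IEL, and 2 of 3 members were higher. The interaction was called for 2.56% of genes, 1.2% positive and 1.35% negative, and for 1 of 3 members, positive.

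Set against the companion of the other progeny, each CD8αα group was lower too. In CD4-derived CD8αα IEL against CD8αβ IEL, where 39.7% of genes were called, 19.3% higher and 20.4% lower, the log2 fold changes were -7.99 for Cd28, -4.33 for Icos and -2.13 for Ctla4 (adjusted p = 5.85e-08, 5.29e-08 and 3.30e-05). In CD8αβ-derived CD8αα IEL against CD4 IEL, where 38.7% were called, 20.9% higher and 17.8% lower, they were -8.64 for Cd28, -9.62 for Icos and -5.14 for Ctla4 (adjusted p = 2.97e-08, 1.19e-09 and 5.51e-08). These comparisons share their libraries with those above. Leaving out replicate 3 of CD4-derived CD8αα IEL moved the first Cd28 value to -8.89, and leaving out replicate 1 of CD8αβ-derived CD8αα IEL moved the second to -9.25. The same 2 values were -6.99 and -9.39 without the 4 libraries with high Xist.

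**Figure D2:**
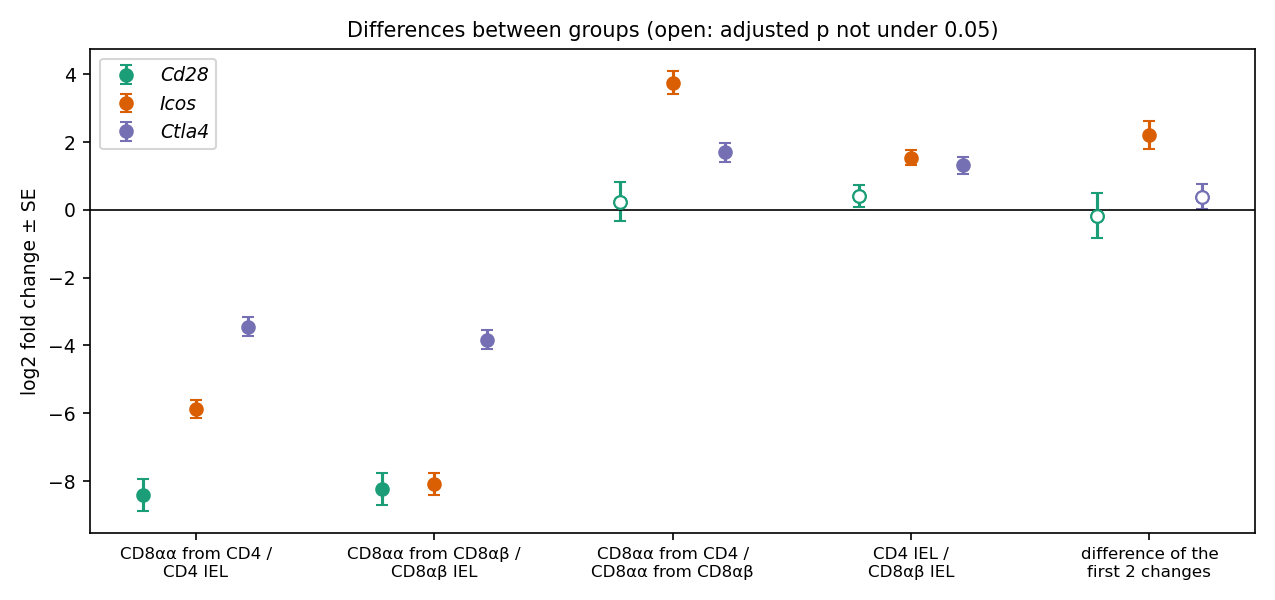
Log2 fold change ± SE (edgeR) of the 3 genes in 4 comparisons and in the difference of the first 2 changes, with filled points for an adjusted p under 0.05. The members are between -3.44 and -8.40 in both CD8αα comparisons, and Cd28 is open in the 3 others.

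Levels of different genes were compared per kb of annotated exon (6122, 3430 and 2330 bases for Cd28, Icos and Ctla4). On this scale Ctla4 was the highest member in all 12 libraries. In CD4-derived CD8αα IEL it averaged 31.7 CPM per kb, above Icos at 2.75 and Cd28 at 0.292. In CD8αβ-derived CD8αα IEL it averaged 9.82 CPM per kb, above Cd28 at 0.230 and Icos at 0.199. In CD4 IEL it averaged 346 CPM per kb, above Icos at 163 and Cd28 at 95.01. In CD8αβ IEL it averaged 140 CPM per kb, above Cd28 at 71.6 and Icos at 55.8.

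The make-up of the receptor transcripts therefore differed by phenotype. Ctla4 made up 87.9 to 94.0% of the summed level per kb in CD4-derived CD8αα IEL and 93.3 to 97.3% in CD8αβ-derived CD8αα IEL, against 51.3 to 62.5% in CD4 IEL and from 49.9 up to 58.8% in CD8αβ IEL. The ranges of the CD8αα and companion libraries do not overlap. As a share of reads, Ctla4 ran from 81.7% (exact Clopper-Pearson 95% interval 78.1 to 84.9%) in CD4-derived CD8αα IEL replicate 3 to 94.4% (90.6 to 97.0%) in CD8αβ-derived CD8αα IEL replicate 3. In companions its highest share of reads was 47.3% (46.5 to 48.1%), in CD4 IEL replicate 2. The summed level of the 3 was 49.7 to 124 CPM in CD4-derived CD8αα IEL and 23.6 to 26.8 CPM in CD8αβ-derived CD8αα IEL, against 1857 to 2006 CPM in CD4 IEL and 722 to 1084 CPM in CD8αβ IEL.

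**Figure D3:**
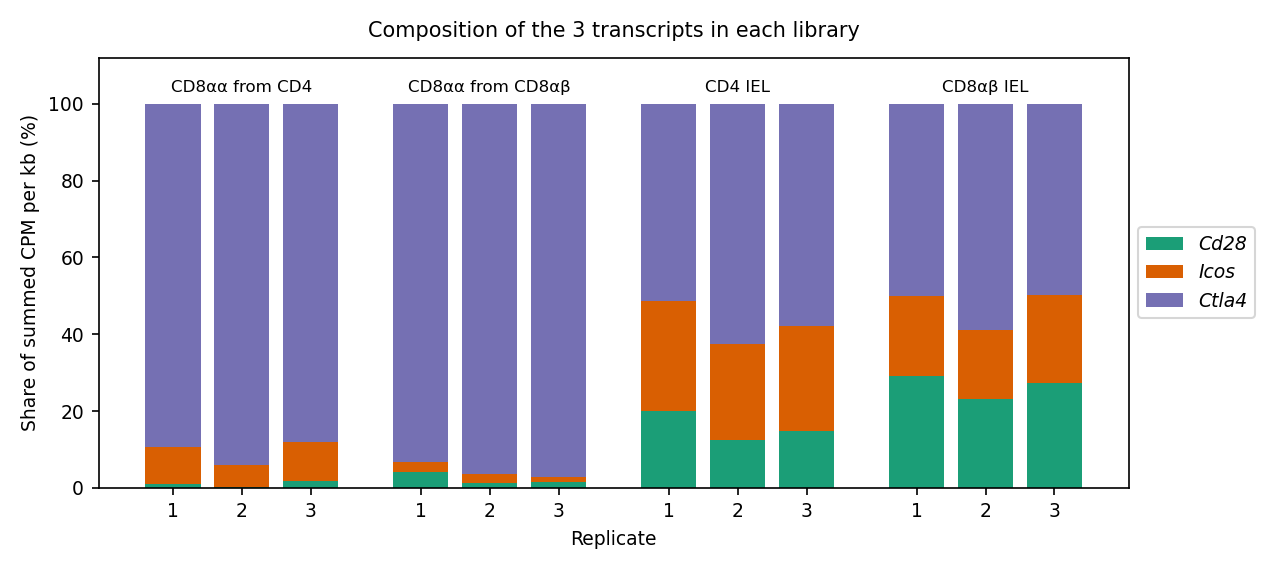
Share of Cd28, Icos and Ctla4 in their summed CPM per kb of exon, in percent, with 1 bar for each library. Ctla4 fills 87.9 to 97.3% of each CD8αα bar and 49.9 to 62.5% of each companion bar.

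Ratios of reads within a library do not depend on scaling between libraries. Ctla4 had 30.6, 197 and 19.5 reads per Cd28 read in CD4-derived CD8αα IEL and 8.72, 27.0 and 24.4 in CD8αβ-derived CD8αα IEL, against 0.980 to 1.89 in CD4 IEL and from 0.656 up to 0.963 in CD8αβ IEL. The CD8αα ratios rest on 5 to 25 Cd28 reads each. Icos had 4.75, 18.0 and 3.36 reads per Cd28 read in CD4-derived CD8αα IEL and 0.360, 0.875 and 0.444 in CD8αβ-derived CD8αα IEL. In companions that ratio was 0.812 to 1.11 in CD4 IEL and from 0.405 up to 0.471 in CD8αβ IEL.

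Between the companions, where each gene had at least 1237 reads in each library, the ratios were tested over libraries. The log2 ratio of Icos to Cd28 was higher in CD4 IEL than in CD8αβ IEL by 1.16, with no overlap (two-sided exact permutation p = 0.1, adjusted p over the 3 ratios = 0.15). Ctla4 to Cd28 was higher in CD4 IEL by 0.88, with no overlap (exact p = 0.1, adjusted p = 0.15). Ctla4 to Icos differed by -0.28, with overlap (exact p = 0.4, adjusted p = 0.4). With 3 libraries against 3 the smallest p this test can give is 0.1, so none could pass the threshold.

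Genes near the cluster were looked at in the same comparisons. Within 1 Mb of the 3 genes the table has 17 other rows, of which 7 averaged at least 1 CPM and were tested. None of the 7 was called lower in either CD8αα comparison (edgeR), beside 13.5% and 15.1% of all tested genes, so a count of 0 is near that share. Of the 7, 1 was called higher in CD4-derived CD8αα IEL and 2 in CD8αβ-derived CD8αα IEL, beside 15% and 16.1% of all tested genes. The other 5 were called in neither comparison. Fam117b was at 9.40 to 13.8 CPM in CD4-derived CD8αα IEL and 17.4 to 44.2 CPM in CD4 IEL, with a log2 fold change of -1.13 and an adjusted p of 0.0708. Abi2, an adaptor of actin regulation, was at 32.0 to 43.4 CPM in CD4-derived CD8αα IEL and 48.4 to 59.8 CPM in CD4 IEL, with a log2 fold change of -0.57 (adjusted p = 0.187). Cyp20a1, a cytochrome P450 family gene, rose in CD8αβ-derived CD8αα IEL, with means of 18.8 CPM there and 8.36 CPM in CD8αβ IEL (log2 fold change 1.17, adjusted p = 0.0103). Pard3b, a polarity gene, had 51 reads in CD4-derived CD8αα IEL and 0 in CD4 IEL, which makes it at least 19.0-fold higher against a floor of 3 counts over the group. It had 63 reads in CD8αβ-derived CD8αα IEL and 5 in CD8αβ IEL (log2 fold change 3.34, adjusted p = 0.0412). Without the 4 libraries with high Xist neither Cyp20a1 (adjusted p = 0.119) nor Pard3b (0.140 in the CD4 progeny, 0.577 in that of CD8αβ cells) was called. Between the CD8αα groups none of the 7 was called, and between companions Abi2 was higher in CD4 IEL than in CD8αβ IEL (log2 fold change 1.25, adjusted p = 0.00949).

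**Figure D4:**
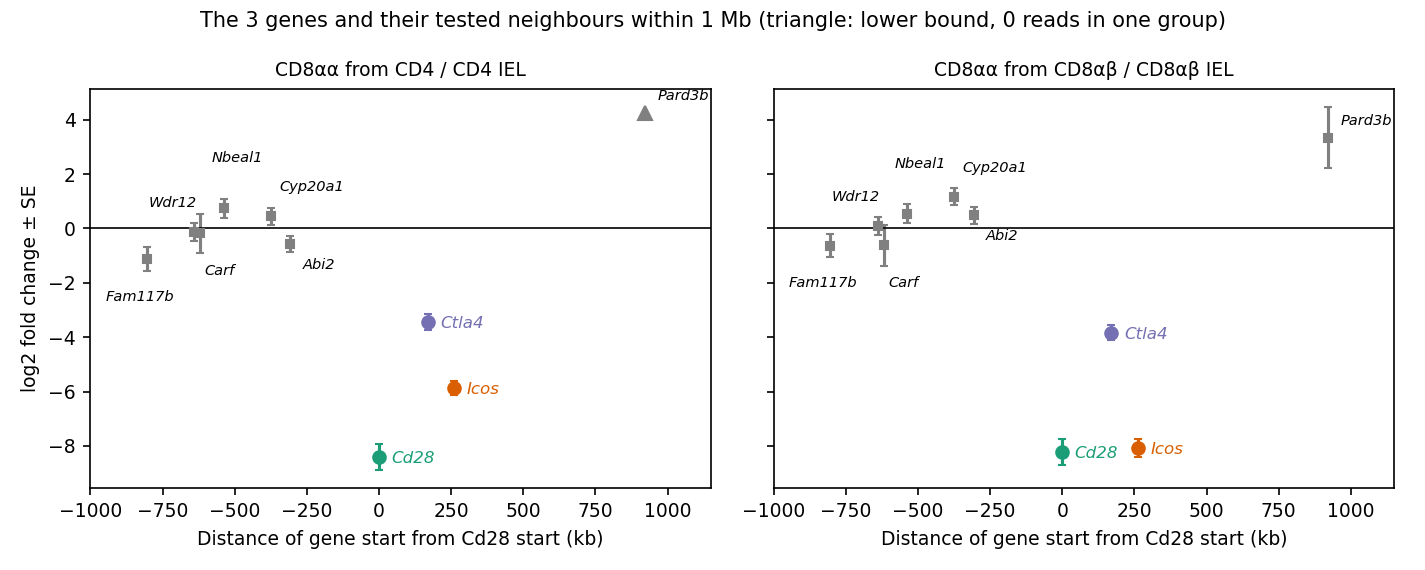
Log2 fold change ± SE of the 3 genes (coloured points) and of 7 tested neighbours (grey), by distance of the gene start from that of Cd28 in kb, in the 2 CD8αα comparisons. A triangle is a lower bound where 1 group had 0 reads. The members lie between -3.44 and -8.40 and no neighbour lies below -1.13.

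By Pearson r of log2 CPM over the 12 libraries, the genes most like Cd28 were Ubash3a (r = 0.995), a negative regulator of T cell receptor signals, Cd6 (0.992), a T cell adhesion receptor, Impdh1 (0.991), an enzyme of guanine nucleotide synthesis, Cd84 (0.991), a SLAM family receptor, and Themis (0.989), a T cell signalling protein. Those most like Icos were Gpr132 (0.993), Satb1 (0.993), Adam19 (0.991), Crmp1 (0.989) and Ctla4 (0.984). Those most like Ctla4 were Iqgap2 (0.989), Satb1 (0.985), Rock2 (0.984), Icos (0.984) and Crmp1 (0.981). Gpr132 is a G protein-coupled receptor, Adam19 a membrane metalloprotease, Iqgap2 a cytoskeletal scaffold and Rock2 a kinase of the cytoskeleton. Satb1, a chromatin organiser, averaged 4.27 CPM in CD4-derived CD8αα IEL and 1.15 in CD8αβ-derived CD8αα IEL, against 71.3 in CD4 IEL and 35.2 in CD8αβ IEL. Icos and Ctla4 were thus among each other's 5 most like genes of 11096 compared. Cd28 stood further off, with r = 0.927 to Icos, which ranked 234 for Cd28, and r = 0.910 to Ctla4, which ranked 333. The 12 libraries form a low and a high set for all these genes, so r describes mostly that gap, and the points of a group share their sort and their host type.

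Of the other receptors of the family in the list, both fell with the members in both progenies, beside 13.5% and 15.1% of all tested genes called lower. Pdcd1, the gene of the inhibitory receptor PD-1, averaged 0.667 ± 0.909 CPM in CD4-derived CD8αα IEL and 100.8 ± 29.1 CPM in CD4 IEL (log2 fold change -7.29). It averaged 0.926 ± 0.172 CPM in CD8αβ-derived CD8αα IEL and 377 ± 91.0 CPM in CD8αβ IEL (-8.63). Btla, another inhibitory receptor, had log2 fold changes of -3.30 in the CD4 progeny but -3.58 in that of CD8αβ cells. Pdcd1 was lower in CD4 IEL than in CD8αβ IEL (-1.90, adjusted p = 9.30e-04), while Icos and Ctla4 were higher there.

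The ligands of the family are mainly products of antigen-presenting cells. Of 6 tested, 0 were called higher and 1 lower in CD4-derived CD8αα IEL, with a median log2 fold change of 0.14 beside 0.02 over all genes tested, where 15% were called higher and 13.5% lower. In CD8αβ-derived CD8αα IEL 1 was higher and 2 were lower, with a median of 0.18 beside -0.003, where 16.1% were called higher and 15.1% lower. These counts are near the shares over all genes. Cd86, a ligand of both CD28 and CTLA-4, averaged 2.12 ± 0.662 CPM in CD4-derived CD8αα IEL and 33.8 ± 16.1 CPM in CD4 IEL (log2 fold change -4.02). It averaged 5.93 ± 3.45 CPM in CD8αβ-derived CD8αα IEL and 88.2 ± 27.9 CPM in CD8αβ IEL (-3.90). Cd80, the other such ligand, fell in CD8αβ-derived CD8αα IEL (-3.38), had a log2 fold change of 0.38 in CD4-derived CD8αα IEL (adjusted p = 0.729) and was higher in CD4-derived CD8αα IEL than in CD8αβ-derived CD8αα IEL (3.63, adjusted p = 0.0270), at 61 and 6 reads. Neither Cd80 call held without the 4 libraries with high Xist (adjusted p = 0.117 and 0.611). Icosl, the ligand of ICOS, rose in CD8αβ-derived CD8αα IEL (2.54) and was higher in CD4 IEL than in CD8αβ IEL (2.00, adjusted p = 0.00321).

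Proximal signalling genes changed by smaller factors than the receptors. Of 18 tested, 1 was higher and 6 were lower in CD4-derived CD8αα IEL, with a median of -0.21, beside 15% higher and 13.5% lower over all genes. In CD8αβ-derived CD8αα IEL 2 were higher and 6 lower, with a median of -0.10, beside 16.1% higher and 15.1% lower. Rltpr, an older symbol of Carmil2, which CD28 needs to signal, fell in CD4-derived CD8αα IEL (-1.27) and in CD8αβ-derived CD8αα IEL (-0.91). Neither Rltpr call held without the 4 libraries with high Xist (adjusted p = 0.0647 and 0.0790). Between companions 3 were higher in CD4 IEL than in CD8αβ IEL, among them Malt1, a protease of NF-κB signalling (0.88, adjusted p = 0.0461). Between the CD8αα groups 0 of 18 were called.

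Among 9 genes of CTLA-4 trafficking and binding partners, 2 rose and 3 fell in each progeny, with medians of -0.14 in CD4-derived CD8αα IEL and -0.36 in CD8αβ-derived CD8αα IEL. Over all genes 15% were called higher and 13.5% lower in the CD4 progeny, 16.1% higher and 15.1% lower in that of CD8αβ cells. Ptpn11, the phosphatase SHP-2, rose in CD4-derived CD8αα IEL (1.17) and in CD8αβ-derived CD8αα IEL (1.37). Lrba, which protects CTLA-4 from lysosomal degradation, fell in CD4-derived CD8αα IEL (-1.09) and in CD8αβ-derived CD8αα IEL (-0.92). Trat1, an adaptor reported to aid transport of CTLA-4 to the surface, fell in CD4-derived CD8αα IEL (-1.06) and in CD8αβ-derived CD8αα IEL (-1.22). Trat1 was also higher in CD4-derived CD8αα IEL than in CD8αβ-derived CD8αα IEL, at 36.7 ± 13.2 and 9.69 ± 2.28 CPM (1.92, adjusted p = 0.00968), as it was in CD4 IEL against CD8αβ IEL (1.76). Without the 4 libraries with high Xist, the calls on Ptpn11, Lrba and Trat1 in the CD8αα comparisons were lost, and Trat1 was no longer called between the CD8αα groups (adjusted p = 0.560).

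Of 11 regulators of expression, 8 fell and 0 rose in CD4-derived CD8αα IEL (median -1.55), and 4 fell and 0 rose in CD8αβ-derived CD8αα IEL (median -0.27), beside 13.5% and 15.1% of all genes called lower. Tcf7, the factor TCF-1 of naive and memory T cells, fell in CD4-derived CD8αα IEL (-6.64) and in CD8αβ-derived CD8αα IEL (-5.25). Its relative Lef1 fell in CD4-derived CD8αα IEL (-4.52) and in CD8αβ-derived CD8αα IEL (-4.95). Maf, known to support Icos-dependent helper T cells, averaged 4.39 ± 0.931 CPM in CD4-derived CD8αα IEL and 121 ± 15.1 CPM in CD4 IEL (-4.79), but 12.4 ± 2.60 CPM in CD8αβ-derived CD8αα IEL and 8.90 ± 4.96 CPM in CD8αβ IEL. Maf was thus lower in CD4-derived CD8αα IEL than in CD8αβ-derived CD8αα IEL (-1.50, adjusted p = 0.0292), the opposite direction to Icos and Ctla4. It was -1.46 without the 4 libraries with high Xist and not called (adjusted p = 0.703). Foxp3, the regulatory T cell factor, was higher in CD4 IEL than in CD8αβ IEL (1.53), as Ctla4 was, at 32.5 ± 11.4 and 11.3 ± 1.26 CPM.

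Among 12 genes induced by costimulation, 3 rose and 9 fell in CD4-derived CD8αα IEL, and 4 rose and 5 fell in CD8αβ-derived CD8αα IEL, with medians of -1.49 and -0.84. Over all genes 15% were called higher and 13.5% lower in the CD4 progeny, 16.1% higher and 15.1% lower in that of CD8αβ cells. Il21, a helper cytokine gene, had 0 reads in CD4-derived CD8αα IEL and 1128 in CD4 IEL, so it was at least 336-fold lower against a floor of 3 counts over the group. Cd40lg, a helper ligand gene, fell in CD4-derived CD8αα IEL (-8.91). It had 1 read in CD8αβ-derived CD8αα IEL and 130 in CD8αβ IEL, a ratio of 165 with a counting interval of 29.0 to 6551. Il4 ran the other way, with 115 reads in CD8αβ-derived CD8αα IEL and 0 in CD8αβ IEL, at least 30.3-fold higher. Bcl2l1, a survival gene that CD28 signals raise in T cells, averaged 76.1 ± 9.35 CPM in CD4-derived CD8αα IEL and 218 ± 34.0 CPM in CD8αβ-derived CD8αα IEL (-1.52, adjusted p = 2.60e-04). Myc, a transcription factor gene of cell growth, averaged 51.4 ± 8.12 CPM in CD4-derived CD8αα IEL and 102.8 ± 10.5 CPM in CD8αβ-derived CD8αα IEL (adjusted p = 0.00707). Without the 4 libraries with high Xist neither Bcl2l1 (adjusted p = 0.150) nor Myc (adjusted p = 0.568) was called between the CD8αα groups.

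For lists and neighbours, leaving out the 4 libraries with high Xist was an alternative chosen after seeing the data. Counts without them were lower in several lists, as they were over all genes (1306 called in the CD4 progeny, 1452 in that of CD8αβ cells). Both other receptors of the family stayed called in both progenies. Proximal signalling genes then had 0 higher and 3 lower in each progeny. Trafficking and binding partners had 0 called in the CD4 progeny and 1, lower, in the CD8αβ progeny, and regulators had 6 and 3 lower. Induced genes had 1 higher and 4 lower in the CD4 progeny, and 3 higher and 3 lower in the CD8αβ progeny. Of the ligands, 1 was lower in the CD4 progeny, and 1 was higher and 1 lower in the CD8αβ progeny.

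**Figure D5:**
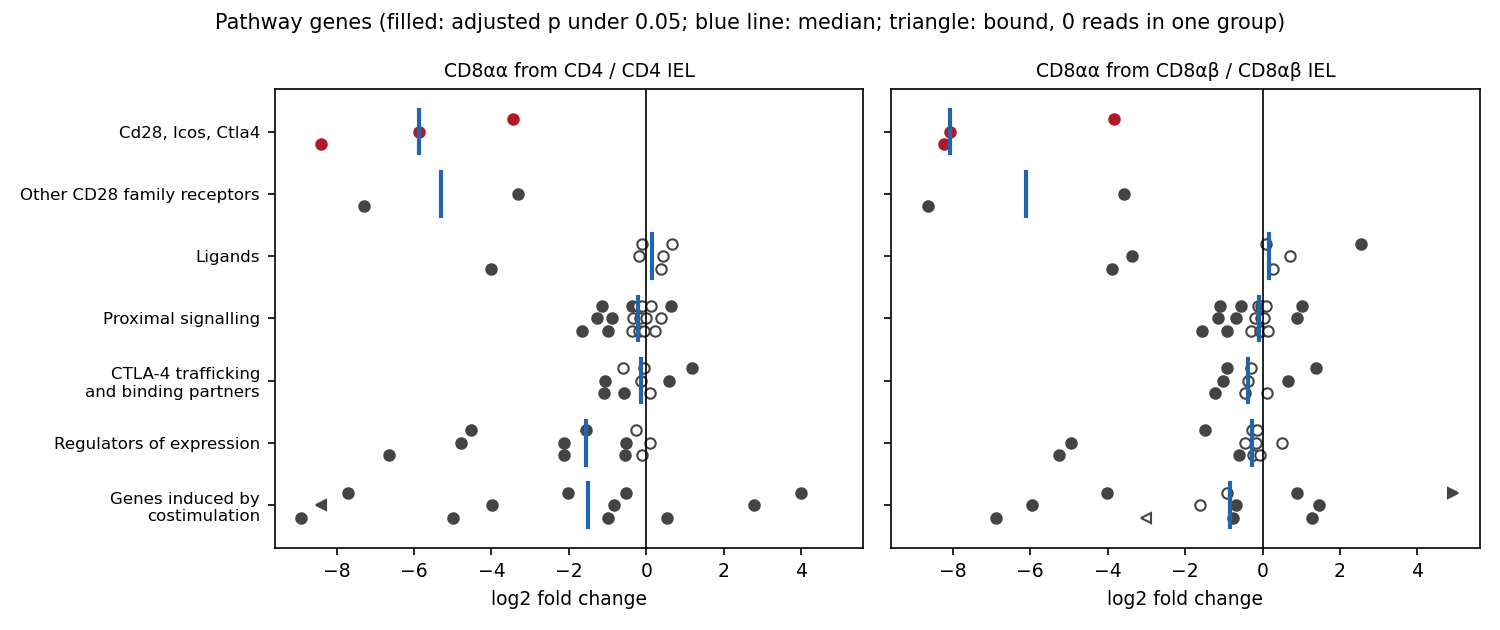
Log2 fold change of the 3 genes (red) and of the genes of 6 lists in the 2 CD8αα comparisons, with filled points for an adjusted p under 0.05 and a blue line at each median. Triangles are bounds where 1 group had 0 reads. The other receptors of the family lie at -3.30 to -8.63, and the median of the signalling genes at -0.21 and -0.10.

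Summed markers of natural killer and innate lymphoid, myeloid and epithelial cells were higher in each CD8αα group than in its companion. Single markers did not all follow. Summed over 7 markers of natural killer and innate lymphoid cells, the level was 3112 to 3868 CPM in CD4-derived CD8αα IEL and 3438 to 5988 CPM in CD8αβ-derived CD8αα IEL, against 481 to 615 CPM in CD4 IEL and 626 to 948 CPM in CD8αβ IEL. Of these 7, 4 were higher in CD4-derived CD8αα IEL and 5 in CD8αβ-derived CD8αα IEL, with 1 lower in each. Beside the counts of this paragraph, 15% of all tested genes were called higher and 13.5% lower in the CD4 progeny. In the CD8αβ progeny 16.1% were called higher and 15.1% lower. Tyrobp and Fcer1g held most of the sum of these 7, while the defining marker Ncr1 was at 0 to 4.27 CPM and Eomes at 0 to 0.748 CPM in CD8αα libraries. Summed over 8 myeloid markers it was 1302 to 1487 CPM in CD4-derived CD8αα IEL and 908 to 1091 CPM in CD8αβ-derived CD8αα IEL, against 84.6 to 193 CPM in CD4 IEL and 184 to 293 CPM in CD8αβ IEL. Of these 8, 3 were higher in each CD8αα group and 3 were lower in CD8αβ-derived CD8αα IEL, Emr1 was at 0 to 0.312 CPM in CD8αα libraries, and Itgax, Fcgr3 and Itgam held most of the sum. Epithelial markers summed to 400 to 506 CPM in CD4-derived CD8αα IEL and 536 to 657 CPM in CD8αβ-derived CD8αα IEL, against 78.6 to 160 CPM in CD4 IEL and 202 to 372 CPM in CD8αβ IEL, with 2 of 7 called higher in CD4-derived and 3 of 7 in CD8αβ-derived CD8αα IEL. B cell markers summed to at most 1.59 CPM anywhere, with Pax5 at 0 in every library.

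Markers of T cell subsets that carry ICOS or CTLA-4 did not all follow the members. Those of follicular helper T cells summed to 6.76 to 9.22 CPM in CD4-derived CD8αα IEL and 5.10 to 6.54 CPM in CD8αβ-derived CD8αα IEL, against 241 to 369 CPM in CD4 IEL and 379 to 581 CPM in CD8αβ IEL, with Il21 at 0 in the CD8αα groups and Ascl2 at 0 in all 4 groups. Of the 6 tested, 6 were lower in CD4-derived CD8αα IEL and 5 in CD8αβ-derived CD8αα IEL. Beside the counts of this paragraph, 15% of all tested genes were called higher and 13.5% lower in the CD4 progeny. In the CD8αβ progeny 16.1% were called higher and 15.1% lower. Markers of regulatory T cells summed to 213 to 239 CPM in CD4-derived CD8αα IEL and 273 to 315 CPM in CD8αβ-derived CD8αα IEL, against 210.3 to 283 CPM in CD4 IEL and 189 to 234 CPM in CD8αβ IEL. Of these 6, 1 was higher and 4 were lower in CD4-derived CD8αα IEL, and 1 was higher and 2 lower in CD8αβ-derived CD8αα IEL, with Folr4 at 0 in both. Foxp3 was among the lower ones in CD4-derived CD8αα IEL (-2.13) but was not called in CD8αβ-derived CD8αα IEL (-0.46, adjusted p = 0.269, edgeR). Il2ra had 3 reads in each CD8αα group, against 778 in CD4 IEL and 174 in CD8αβ IEL. The summed level therefore does not describe each marker. The part of these other cell types in the levels of Cd28, Icos and Ctla4 was not tested.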

How the data were processed

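RNA of sorted mouse IEL was sequenced in 12 bulk libraries, placed in 4 groups of 3 by their titles and progeny labels. What the authors deposited is a table of raw read counts, whole numbers for each gene and library. Reads were aligned with HISAT2 2.1.0 to mm10, per the submitters' processing notes. How reads were counted (program, annotation release, strand, multiple matches) is not given in the sources used here. Of its 25965 rows, 66 (0.0202% of reads) repeated a symbol and were dropped in favour of the row with more reads.

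Low counts were removed with filterByExpr (minimum count 10, minimum total 15). After TMM scaling, edgeR's quasi-likelihood test was run (edgeR 4.0.16, limma 3.58.1, R 4.3.3), with two-sided p-values adjusted by the Benjamini-Hochberg method across the 12622 genes left. The model held all 12 libraries and a mean for each group. The test was tried on simulated counts first. Ratios used an exact permutation test. Libraries of a group differed by a chi-square of 11.4 to 60.2 per gene, above sampling noise. Each was counted as 1 replicate, although this value cannot tell separate mice from separate preparations of the same RNA. Alternatives were other scalings, DESeq2 1.42.0, no filter, 2-group fits, a replicate block and leaving out libraries.

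The members, gene lists and tests were chosen with earlier results of these data known, and no gene list was tested as a set. Genes named beside the members were all tested genes within 1 Mb with a mean of at least 1 CPM, up to 2 called genes per list and comparison with the largest absolute log2 fold change, and the 5 genes with the highest r (log2 CPM with a prior count of 0.5). Marker genes and called genes named outside this rule were chosen after their values were seen. Some genes that this rule names are not reported here.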

Additional observations from a re-analysis of the deposited data

Results flagged for a closer look

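The change of Icos differed between the progenies, which is why it is listed here. Its log2 fold change in libraries labelled CD8αα against their companions was higher in the CD4 progeny than in the CD8αβ progeny by 2.20 ± 0.42 (SE, adjusted p = 0.0134, interaction term in edgeR's quasi-likelihood test). The direct comparison of the CD8αα groups gave 13.5-fold more Icos in CD4-derived CD8αα IEL than in CD8αβ-derived CD8αα IEL, with all 3 libraries of CD4-derived CD8αα IEL above all 3 of CD8αβ-derived CD8αα IEL. The CD8αβ-derived CD8αα IEL group rests on 20 Icos reads in all. The interaction was not called without replicate 3 of that group (2.01, adjusted p = 0.0526) or without the 4 CD8αα libraries with high Xist (2.38, adjusted p = 0.373).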

How the results depend on the processing

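Over 21 tests of the 3 genes, 384 of 396 values under the alternatives kept their direction and their side of the threshold, and all falls from companion to CD8αα stayed called throughout. The interaction of Icos ran from 2.01 to 2.42 when 1 library was left out, and its call was lost without replicate 3 of CD8αβ-derived CD8αα IEL (adjusted p = 0.0526). Without the 4 CD8αα libraries with high Xist, which leaves 1 library in each CD8αα group, Icos (3.93, adjusted p = 0.126) and Ctla4 (1.54, adjusted p = 0.235) in CD4-derived CD8αα IEL against CD8αβ-derived CD8αα IEL and the Icos interaction (2.38, adjusted p = 0.373) no longer passed, and called genes came to 1306 (CD4-derived CD8αα IEL against CD4 IEL), 1452 (CD8αβ-derived CD8αα IEL against CD8αβ IEL), 1 (CD4-derived CD8αα IEL against CD8αβ-derived CD8αα IEL), 1678 (CD4-derived CD8αα IEL against CD8αβ IEL), 2546 (CD8αβ-derived CD8αα IEL against CD4 IEL) and 13 (interaction), with fewer samples by construction. Uncalled values that changed sign were the Cd28 interaction (-1.07 to 0.44 with 1 library left out, 1.58 without the 4 libraries), the Ctla4 interaction (-0.062 to 0.67) and Cd28 between the CD8αα groups (-0.66 to 0.85 with 1 library left out, 1.99 without the 4 libraries). DESeq2 called 1036 genes between the CD8αα groups and 817 in the interaction, against 547 and 323 in edgeR, and a fit of the 2 CD8αα groups alone called 903. With 1 library left out, counts between the CD8αα groups were 176 to 724, at most 193 without replicate 1 or 2 of the CD4-derived or 2 or 3 of the CD8αβ-derived ones. Those in the interaction were 145 to 385, at most 174 without replicate 2 or 3 of the CD4-derived or 1 or 3 of the CD8αβ-derived ones. The cause was not tested. Same-numbered libraries correlated by -0.0598 to 0.280, over 0.1 in 2 of 18 pairs, and 9 of 12 libraries correlated best with their own number. In the CD8αβ progeny, same-numbered CD8αα and companion libraries correlated by 0.176, 0.280 and 0.0817, and different-numbered ones by -0.214 to 0.0355. These correlations do not settle whether the numbers pair samples. With the replicate number as a block the Icos interaction was 2.18 and no call on the 3 genes changed, while called genes between the CD8αα groups came to 663. Depth limits Cd28 in both CD8αα groups and Icos in CD8αβ-derived CD8αα IEL, at 20 to 42 reads per group.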
